A study of Mus musculus with 18 samples.

Results

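The expression of 6 genes was followed across livers of WT and *Apoe* KO mice: the cytochrome P450 genes *Cyp2b9*, *Cyp2b13* and *Cyp2b10*, the pseudogene *Gm29920* that lies between the first pair, and the receptor genes *Nr1i3* (CAR) and *Nr1i2* (PXR). They are 6 of the 15052 genes in the deposited table. The members were selected on these same data: *Cyp2b9*, *Cyp2b13* and *Gm29920* for their low values in *Apoe* KO mice and *Cyp2b10* for its dependence on diet, while the receptors were taken for their known role. Differences of the first 4 genes are therefore given as a description, with no p-value, and tests are given for the receptors, their target genes, the neighboring genes and the way genes deviated together within groups.

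The series holds liver mRNA from 18 mice labelled female, in 4 groups: among pair-fed mice 4 were WT and 5 *Apoe* KO, and among EtOH-fed mice 5 were WT and 4 *Apoe* KO. By the study's methods the WT mice were C57BL/6 J, *Apoe* KO and WT mice were bought as separate lines, and ages were 10 to 12 weeks. For 10 days EtOH-fed mice drank liquid food holding ethanol at 5% (v/v), followed by 1 ethanol gavage of 5 g/kg, pair-fed mice took the control food and a dextrin-maltose gavage of 9 g/kg, and livers were taken 9 h later, so that both diets and both genotypes share the feeding schedule and the gavage. The values are read counts that the authors scaled so that every library has nearly the same total, and they are called scaled read counts here.

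CAR and PXR are nuclear receptors of hepatocytes that sense foreign compounds, drugs and bile acids. After activation each pairs with a retinoid X receptor, binds response elements near its target genes and raises transcription of enzymes and transporters that modify and export such compounds. *Cyp2b10* is the classical CAR target of mouse liver, whereas *Cyp2b9* and *Cyp2b13* are known for higher levels in female than in male liver. A processed pseudogene such as *Gm29920* is a copy of a spliced transcript put back into the genome.

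The 3 *Cyp2b* genes lie on the plus strand of chromosome 7 (GRCm38), *Cyp2b10* at 25897620 to 25926624, *Cyp2b13* at 26061497 to 26096197 and *Cyp2b9* at 26173411 to 26210661. *Gm29920* (ENSMUSG00000108342) is on the minus strand at 26099563 to 26100316. *Apoe* lies on the same chromosome at 19696109 to 19699188, 6.48 Mb from the start of *Cyp2b9*. *Nr1i3* is on chromosome 1 and *Nr1i2* on chromosome 16. Because *Cyp2b9* and *Cyp2b13* were low in *Apoe* KO mice on both diets and *Cyp2b10* with EtOH alone, the 250 bases before each gene's start are printed (RefSeq, GRCm38.p6, plus strand). Gene positions above are from GENCODE, and the RefSeq start lies 2 bases before the GENCODE start in *Cyp2b9* and *Cyp2b13* and 38 bases after it in *Cyp2b10*, so that the last 38 bases of the *Cyp2b10* window are inside the gene as GENCODE places it. In *Cyp2b9* (chr7:26173159-26173408) and *Cyp2b13* (chr7:26061245-26061494) capitals mark the bases at which these 2 differ, and in *Cyp2b10* (chr7:25897408-25897657) capitals mark the bases not matched in a global alignment with *Cyp2b9*:
Cyp2b9: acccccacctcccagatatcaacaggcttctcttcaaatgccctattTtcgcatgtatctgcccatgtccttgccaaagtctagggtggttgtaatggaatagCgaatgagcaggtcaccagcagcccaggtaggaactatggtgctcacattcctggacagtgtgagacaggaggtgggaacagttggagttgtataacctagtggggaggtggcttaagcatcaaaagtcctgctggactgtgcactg
Cyp2b13: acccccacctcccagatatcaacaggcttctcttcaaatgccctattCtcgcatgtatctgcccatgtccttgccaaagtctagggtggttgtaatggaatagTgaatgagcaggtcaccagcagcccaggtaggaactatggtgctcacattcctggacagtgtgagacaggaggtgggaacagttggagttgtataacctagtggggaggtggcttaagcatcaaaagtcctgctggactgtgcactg
Cyp2b10: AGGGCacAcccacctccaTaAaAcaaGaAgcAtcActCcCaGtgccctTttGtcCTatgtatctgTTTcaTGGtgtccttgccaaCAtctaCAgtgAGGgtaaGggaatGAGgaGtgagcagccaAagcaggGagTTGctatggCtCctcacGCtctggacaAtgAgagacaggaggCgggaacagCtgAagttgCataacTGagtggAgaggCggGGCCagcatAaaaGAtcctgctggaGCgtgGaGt
The windows of *Cyp2b9* and *Cyp2b13* were identical at 248 of 250 positions (99.2%), with T48C and C104T as the differences, the *Cyp2b9* base first and positions counted from 1 at the 5′ end of the window. *Cyp2b9* and *Cyp2b10* were identical at 182 of 260 alignment columns (70.0%). The nuclear receptor half-site AGGTCA, searched on both strands, occurred once in *Cyp2b9* and once in *Cyp2b13*, in each with its first base at -138 from the start, and was not among the letters of the *Cyp2b10*, *Nr1i3* or *Nr1i2* windows. It occurred in 13.8% of 27025 promoter windows of this length. The letters TATAAA, held by 12.97% of all windows, were in none of the 5. Both motifs were chosen with the sequences in view. Bases farther from the start were not searched, so absence here does not mean that a gene lacks receptor sites.

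The transcripts are also alike, which bears on how reads were assigned. The longest coding transcripts of *Cyp2b9* and *Cyp2b13* were identical over 89.3% of alignment columns, and 10.8% of 50-base windows of *Cyp2b9* occurred unchanged in *Cyp2b13*. For *Cyp2b9* and *Cyp2b10* that share was 0.547%, for *Cyp2b13* and *Cyp2b10* 7.996%, and *Gm29920* shared no 50-base window with any of them. Reads from shared stretches could have been split between *Cyp2b13* and its relatives, and how such reads were counted is not given in the sources used here.

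Library checks came first. *Apoe* was between 611230 and 798431 in WT mice and between 8586 and 108651 in *Apoe* KO mice, so the groups did not overlap, but the *Apoe* KO values ranged from 1.20% to 15.2% of the mean of WT mice on the same diet. EtOH-fed *Apoe* KO mouse 1 went against its sex label: *Xist* was 826 there and at least 15227 elsewhere, and *Ddx3y*, a Y-linked gene, was 1077 there and at most 118 elsewhere. Values without that mouse are given beside the differences of the members, the counts of the gene lists and the named calls that it changes. The spacing of low values gave estimated depths of 5.60 to 52.2 M reads in 16 libraries and could not be read in the other 2, EtOH-fed WT mice 2 and 5. In the EtOH-fed genotype comparison 4.25% of all genes were called higher and 0.445% lower. There 9 of 9 Kupffer cell and macrophage markers were higher in *Apoe* KO mice (8 without mouse 1). Their sums were 14174 to 24839 against 6367 to 11237 in WT mice, and no marker had a group mean under 20. That list does not tell Kupffer cells from other macrophages. Also higher were 2 of 7 stellate and 1 of 5 bile duct markers, while 0 of 10 hepatocyte, 0 of 6 endothelial and 0 of 3 neutrophil markers passed the test and 1 of 3 pancreas and gut genes was lower. These other counts were the same without mouse 1. The neutrophil list held 8 genes, of which 3 had values here. Their sums were 154 to 377 in *Apoe* KO and 145 to 214 in WT mice, so neutrophil content cannot be judged from that count. In such bulk tissue fewer cells of a type and less RNA per cell cannot be told apart, and the part of cell composition in the differences below was not tested.

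*Cyp2b9* was high in every WT liver and low in every *Apoe* KO liver. In pair-fed WT mice 1 to 4 its scaled read counts were 9986, 10742, 11946 and 10878, and in pair-fed *Apoe* KO mice 1 to 5 they were 478, 136, 293, 1254 and 104. In EtOH-fed WT mice 1 to 5 they were 18812, 16754, 20136, 21178 and 17902, and in EtOH-fed *Apoe* KO mice 1, 2, 4 and 5 they were 143, 1017, 897 and 946. The lowest WT value thus lay far above the highest *Apoe* KO value, EtOH-fed WT mice lay above all pair-fed WT mice, and the 2 *Apoe* KO groups overlapped. The mean in *Apoe* KO mice was 4.16% of the WT mean on the pair-fed diet and 3.96% on EtOH. The log2 difference between genotypes was -5.17 ± 0.52 (SE) in pair-fed mice and -4.99 ± 0.44 in EtOH-fed mice, and the latter was -4.31 ± 0.11 without EtOH-fed *Apoe* KO mouse 1. Groups that do not overlap were found for 7.03% of all genes in the pair-fed and 8.13% in the EtOH-fed genotype comparison, and since these comparisons chose the gene nothing is read from that.

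**Figure D1:**
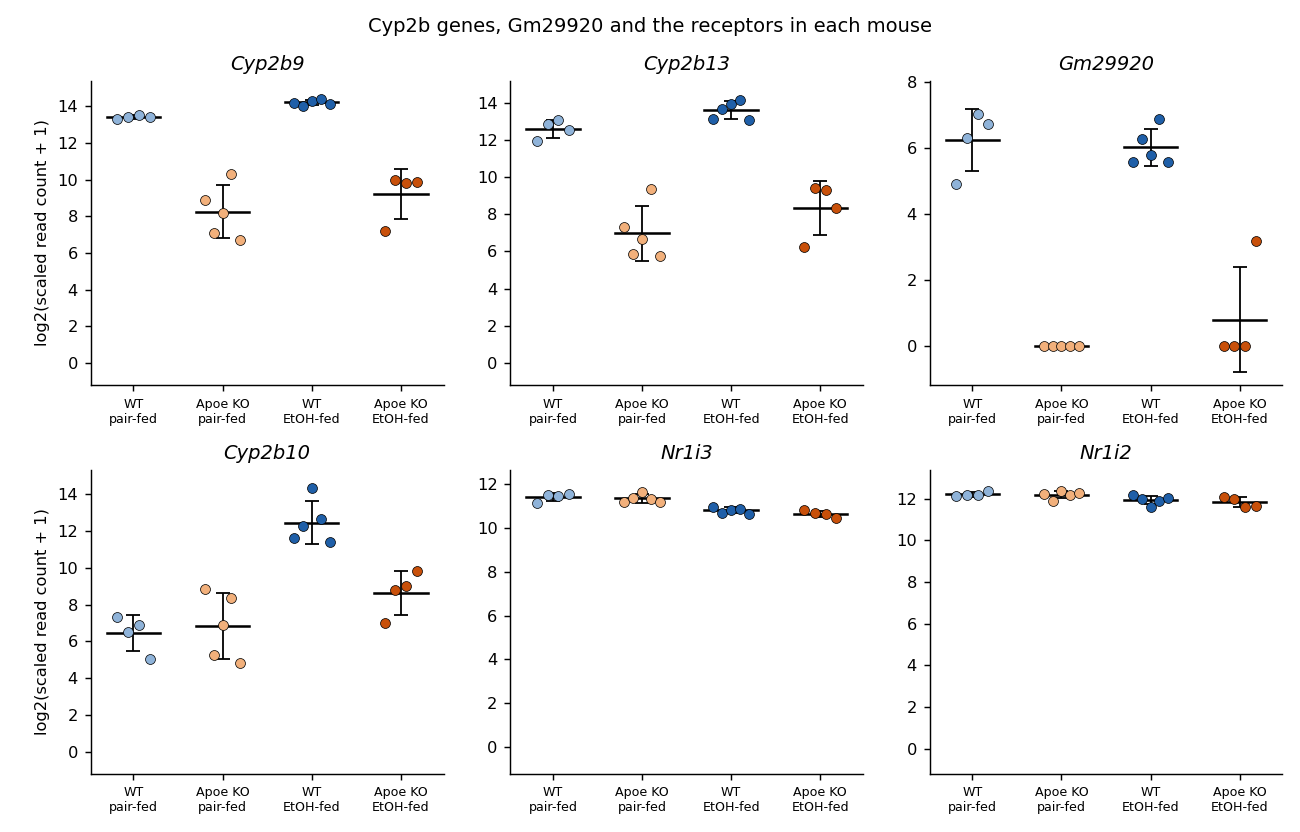
Scaled read counts of the 6 genes as log2(value + 1), 1 point for each of 18 mice by group, with the group mean (line) and SD (bar). *Cyp2b9* and *Cyp2b13* separate by genotype on both diets, *Cyp2b10* is high in the 5 EtOH-fed WT mice, and *Gm29920* is at 0 in 8 of 9 *Apoe* KO mice. *Nr1i3* is lower with EtOH in both genotypes, and *Nr1i2* moves less.

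*Cyp2b13* followed the same order. Its scaled read counts were 3947, 7468, 8633 and 5942 in pair-fed WT mice and 159, 56, 101, 648 and 52 in pair-fed *Apoe* KO mice. They were 9148, 13053, 15607, 18537 and 8795 in EtOH-fed WT mice and 75, 685, 635 and 327 in EtOH-fed *Apoe* KO mice. Again no *Apoe* KO mouse reached the lowest WT mouse and the WT diet groups did not overlap, although the margin between them, 8633 against 8795, was narrow. The log2 difference between genotypes was -5.63 ± 0.56 in pair-fed and -5.27 ± 0.50 in EtOH-fed mice, or -4.58 ± 0.28 without EtOH-fed *Apoe* KO mouse 1. Per kilobase of exon, *Cyp2b9* had a mean of 5804 ± 430 (SD, n = 4) and *Cyp2b13* of 3465 ± 1081 in pair-fed WT mice, and 10105 ± 935 and 6948 ± 2231 (n = 5) in EtOH-fed WT mice. In the mice, *Cyp2b9* was 1.14 to 2.53 times *Cyp2b13* in WT and 1.41 to 3.01 times in *Apoe* KO livers, ranges that overlap.

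*Gm29920* gave few reads, and almost all of them came from WT mice. The values were 29, 79, 131 and 106 in pair-fed WT mice and 47, 77, 55, 118 and 47 in EtOH-fed WT mice, groups that overlap. The pseudogene was listed at 0 in all 5 pair-fed *Apoe* KO mice and in EtOH-fed *Apoe* KO mice 1, 2 and 4, and at 8 in mouse 5. One read is worth 3.85 units in that library, so 8 stands for about 2 reads. A count of 3 reads, taken as the floor, is worth 2.11 to 12.3 units in the *Apoe* KO libraries, and these limits cover counting error only. No fold is given against values listed at 0.

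*Cyp2b10* behaved differently from its neighbors. In pair-fed mice its scaled read counts were 161, 91, 116 and 32 in WT and 455, 38, 120, 333 and 27 in *Apoe* KO mice, groups that overlap. In EtOH-fed mice they were 3133, 4981, 20780, 6586 and 2731 in WT and 125, 449, 512 and 907 in *Apoe* KO mice, groups that do not overlap. All EtOH-fed WT mice were above every other mouse of the study, and *Apoe* KO mice on the 2 diets overlapped. The mean rose from 100 ± 53.8 (SD, n = 4) to 7642 ± 7504 (n = 5) in WT mice, a ratio of 76.4, which was 43.6 without EtOH-fed WT mouse 3, and was 195 ± 190 (n = 5) and 498 ± 321 (n = 4) in *Apoe* KO mice, a ratio of 2.56. That ratio was 3.20 without EtOH-fed *Apoe* KO mouse 1 and 3.85 without pair-fed *Apoe* KO mouse 1.

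On the log2 scale the diet difference of *Cyp2b10* was 6.02 ± 0.54 in WT and 1.81 ± 0.77 in *Apoe* KO mice, where it was 2.37 ± 0.78 without EtOH-fed *Apoe* KO mouse 1. The genotype difference was 0.40 ± 0.73 in pair-fed mice, turning to -0.066 without pair-fed WT mouse 4 and to -0.096 without pair-fed *Apoe* KO mouse 1. In EtOH-fed mice it was -3.81 ± 0.58, or -3.25 ± 0.52 without EtOH-fed *Apoe* KO mouse 1. For *Cyp2b9* the diet differences were 0.80 ± 0.11 in WT and 0.97 ± 0.69 in *Apoe* KO mice, and for *Cyp2b13* 1.002 ± 0.25 and 1.36 ± 0.72. Without EtOH-fed *Apoe* KO mouse 1 the *Apoe* KO values were 1.65 ± 0.61 and 2.05 ± 0.65. The interaction, which is the *Apoe* KO minus the WT diet difference, was -4.21 ± 1.06 for *Cyp2b10*, 0.18 ± 0.78 for *Cyp2b9* and 0.35 ± 0.86 for *Cyp2b13*, and without that mouse -3.65 ± 1.05, 0.86 ± 0.66 and 1.05 ± 0.75. The signs for *Cyp2b9* and *Cyp2b13* turned in other alternatives, to -0.18 and -0.061 with sample weights. Groups without overlap made up 14.4% of all genes in the WT diet comparison and 20% in the *Apoe* KO diet comparison. Per kilobase of exon *Cyp2b10* went from 47.3 ± 25.5 (SD, n = 4) to 3618 ± 3553 (n = 5) in WT mice, beside 5804 and 10105 for *Cyp2b9*.

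The remaining *Cyp2b* signal in *Apoe* KO mice was uneven and moved with the remaining *Apoe* signal. In pair-fed *Apoe* KO mice 1 to 5 *Apoe* was at 4.95%, 1.604%, 3.80%, 15.2% and 1.20% of the pair-fed WT mean, and *Cyp2b9* at 4.39%, 1.25%, 2.69%, 11.5% and 0.955%. In EtOH-fed *Apoe* KO mice 1, 2, 4 and 5 *Apoe* was at 1.70%, 8.17%, 8.67% and 6.84% of the EtOH-fed WT mean, and *Cyp2b9* at 0.754%, 5.36%, 4.73% and 4.99%. Within each diet the mouse with the least *Apoe* had the least *Cyp2b9* and *Cyp2b13*. Expressed against *Apoe* of the same library, *Cyp2b9* was 1.08% to 1.35% in pair-fed *Apoe* KO and 1.35% to 1.81% in pair-fed WT mice, and 1.19% to 1.95% in EtOH-fed *Apoe* KO and 2.26% to 3.41% in EtOH-fed WT mice.

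Over the 9 *Apoe* KO mice Pearson's r between *Apoe* and *Cyp2b9* was 0.982 and Spearman's rho 0.950. For *Cyp2b13* r was 0.948 and rho 0.950, and for *Cyp2b10* r was 0.847 and rho 0.733. Without the 2 mice farthest from the median of *Apoe*, r was 0.964, 0.912 and 0.640, and without EtOH-fed *Apoe* KO mouse 1 it was 0.979, 0.944 and 0.869. With diet means removed it was 0.989, 0.971 and 0.878. *Nr1i3* and *Nr1i2* had r of -0.263 and -0.262, and over the 9 WT mice *Apoe* and *Cyp2b9* had r of -0.0977. Among 14685 genes above 0 in all *Apoe* KO mice, ranked by r with *Apoe*, *Cyp2b9* was in place 1, *Cyp2b13* in place 2 and *Cyp2b10* in place 13. This relation was noticed in these values, so it is given as a description with no p-value, and the points share libraries and depth. Carry-over of RNA or reads from WT into *Apoe* KO libraries was not tested. The remaining *Cyp2b* values of *Apoe* KO mice, their diet differences and the shared deviations within *Apoe* KO groups are therefore values of these libraries as sequenced.

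**Figure D2:**
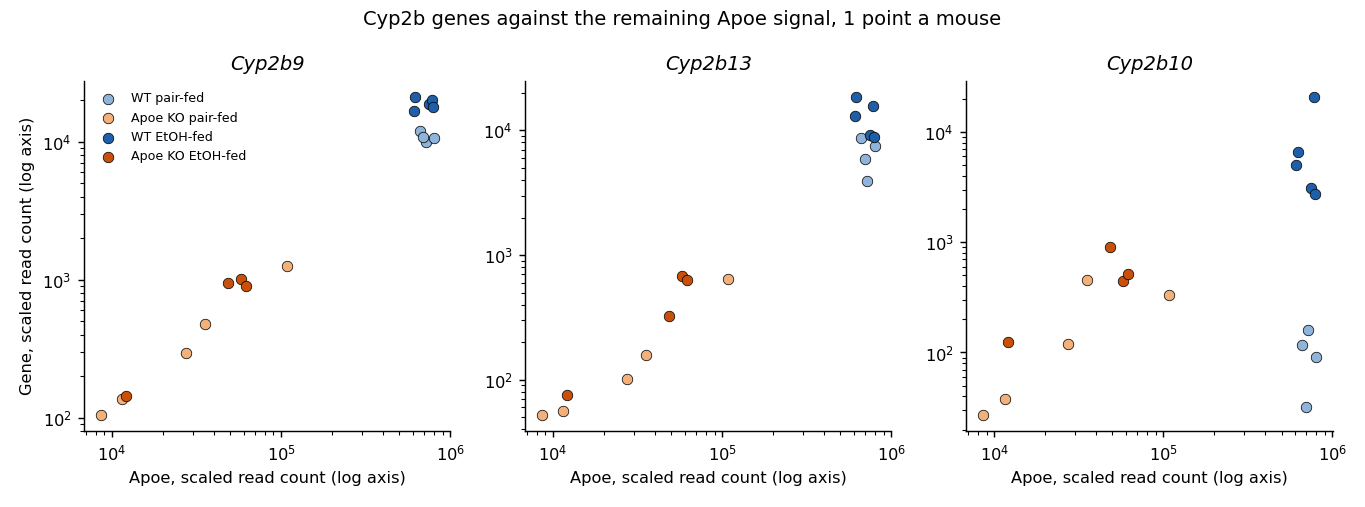
Scaled read counts of *Cyp2b9*, *Cyp2b13* and *Cyp2b10* against *Apoe*, 1 point for each of 18 mice, both axes logarithmic. The 9 *Apoe* KO mice (orange) line up with *Apoe* for *Cyp2b9* (r = 0.982) and *Cyp2b13* (r = 0.948), while the WT mice (blue) form separate groups at high *Apoe*.

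The spread within groups was not used to choose the genes, and 4 relations were computed on deviations from the group means over 18 mice. *Cyp2b9* and *Cyp2b13* deviated together (r = 0.934, rho = 0.870, permutation p adjusted over 4 relations 4e-05 and 0.000120; r = 0.840 without the 2 mice farthest from the median). So did *Cyp2b10* and *Cyp2b9* (r = 0.749, rho = 0.744, adjusted permutation p = 0.000420 and 0.00136; r = 0.697 without 2 mice). For *Cyp2b10* and *Nr1i3* r was -0.255 and rho -0.290 (adjusted permutation p = 0.305 and 0.240; r = -0.340 without 2 mice). For *Cyp2b10* and *Nr1i2* r was -0.427 and rho -0.529, and r did not pass the threshold while rho did (adjusted permutation p = 0.105 and 0.0339; r = -0.498 without 2 mice). The raw permutation p-values of the 4 r values were 1e-05, which is the smallest that these permutations can give, 0.000210, 0.305 and 0.0790. The permutations treated all 18 mice as exchangeable, but the spread of *Cyp2b9* was unequal. Its SD was 7.41% and 9.25% of the mean in pair-fed and EtOH-fed WT mice, and 104% and 54.4% in *Apoe* KO mice. The 2 relations with *Cyp2b9* therefore weigh the *Apoe* KO libraries most, and their p-values do not show a relation shared by WT mice.

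*Nr1i3*, the CAR gene, fell with EtOH in both genotypes. Its scaled read counts were 2247, 2894, 2731 and 2999 in pair-fed WT and 1982, 1644, 1807, 1844 and 1586 in EtOH-fed WT mice. In *Apoe* KO mice they were 2317, 2574, 3176, 2546 and 2308 with pair-feeding and 1777, 1597, 1588 and 1400 with EtOH. Every EtOH-fed mouse lay below every pair-fed mouse. By diet, 14.4% of all genes in WT and 20% in *Apoe* KO mice had groups without overlap in either direction, and 6.52% and 6.92% were called lower. The log2 difference of *Nr1i3* was -0.61 ± 0.11 in WT (limma adjusted p = 0.00376) and -0.69 ± 0.11 in *Apoe* KO mice (limma adjusted p = 0.000745), the means falling to 65.2% and 61.5% of the pair-fed mean. Genotype differences were -0.07 ± 0.12 in pair-fed and -0.16 ± 0.11 in EtOH-fed mice (limma adjusted p = 0.751 and 0.484), and the interaction was -0.08 ± 0.16 (limma adjusted p = 0.839). Without EtOH-fed *Apoe* KO mouse 1 the *Apoe* KO diet difference was -0.75 ± 0.12 (limma adjusted p = 0.00114).

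*Nr1i2*, the PXR gene, moved less. It was 4489, 4580, 4635 and 5389 in pair-fed WT and 4579, 4136, 3109, 3798 and 4239 in EtOH-fed WT mice, and 4857, 3812, 5332, 4699 and 4968 in pair-fed and 4328, 4106, 3169 and 3218 in EtOH-fed *Apoe* KO mice. The groups overlapped in every comparison. The diet difference was -0.27 ± 0.12 in WT (limma adjusted p = 0.149) and -0.36 ± 0.12 in *Apoe* KO mice (limma adjusted p = 0.0481), and the latter lost its call in several alternative fits, among them those without pair-fed *Apoe* KO mouse 1, 3, 4 or 5 and without EtOH-fed *Apoe* KO mouse 4 or 5, where it lay between -0.36 and -0.29. Without EtOH-fed *Apoe* KO mouse 1 it was -0.44 ± 0.12 (limma adjusted p = 0.0256). Genotype differences were -0.02 ± 0.11 in pair-fed and -0.10 ± 0.13 in EtOH-fed mice (limma adjusted p = 0.942 and 0.747), and the interaction was -0.09 ± 0.17 (limma adjusted p = 0.855). Per kilobase of exon *Nr1i2* averaged 1870 ± 163 and *Nr1i3* 616 ± 75.4 (SD, n = 4) in pair-fed WT mice.

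The targets of the 2 receptors were examined as a list of 35 genes, *Cyp2b10* left out. With EtOH, 15 of the 35 rose and 2 fell in WT mice, where 6.19% of all genes were called higher and 6.52% lower. The median log2 difference of the list was 0.52, and of all genes -0.01. Without pair-fed WT mouse 4, 10 targets were called in WT mice, while calls over all genes went from 1912 to 1231. In *Apoe* KO mice 13 rose and 4 fell (12 and 2 without EtOH-fed mouse 1), where 16.3% of all genes were called higher and 6.92% lower, with a list median of 0.28 against 0.13 for all genes. In all, 11 genes passed in both genotypes, 9 higher and 2 lower, of the 23 called in at least 1. The 11 are 64.7% of the 17 calls in each genotype. These comparisons share no mice. How many of all genes passed in both genotypes was not counted, so the 11 cannot be called particular to the targets. With median-of-ratios scaling, which moved the median of all genes in *Apoe* KO mice from 0.126 to 0.0018, the calls were 14 higher and 2 lower in WT and 9 higher and 4 lower in *Apoe* KO mice, and those of all genes in *Apoe* KO mice were 1656 higher and 1607 lower in place of 2446 and 1042.

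Several targets rose in both genotypes. *Abcc4*, an export pump of the hepatocyte's blood side, averaged 221 ± 70.6 (SD, n = 4) in pair-fed and 1267 ± 331 (n = 5) in EtOH-fed WT mice, and 356 ± 215 (n = 5) and 1440 ± 314 (n = 4) in *Apoe* KO mice, with log2 differences of 2.54 ± 0.23 and 2.28 ± 0.43 (limma adjusted p = 3.22e-05 and 0.00220). *Ephx1*, microsomal epoxide hydrolase, rose by 1.25 ± 0.13 and 0.83 ± 0.12 (limma adjusted p = 6.82e-05 and 0.000439). *Cyp2c29* rose by 1.18 ± 0.25 and 0.88 ± 0.22, and *Ugt1a9*, a glucuronosyltransferase gene that shares exons with the other *Ugt1a* genes, by 2.25 ± 0.44 and 0.80 ± 0.24. The *Apoe* KO call of *Ugt1a9* was lost with median-of-ratios scaling, with all 4 groups in 1 fit and without EtOH-fed *Apoe* KO mouse 1 or 2, at 0.67 to 0.80. The glutathione transferase genes *Gstm3* and *Gstm4* rose by 1.61 ± 0.40 and 1.07 ± 0.28 in WT and by 2.18 ± 0.28 and 1.55 ± 0.17 in *Apoe* KO mice, as members of a family of similar genes among which reads could be split. Their WT calls were lost without pair-fed WT mouse 4, at 1.48 for *Gstm3*, and that of *Gstm4* also without pair-fed WT mouse 1. *Alas1*, which makes the first enzyme of heme synthesis, fell by 0.91 in WT and by 1.01 in *Apoe* KO mice (limma adjusted p = 0.00476 and 0.00181).

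Other targets passed in 1 genotype. In WT mice alone these were *Cyp2c37*, *Cyp2c54*, *Cyp2c55*, *Cyp3a11*, *Fmo5* and *Gadd45b*. In *Apoe* KO mice alone they were *Abcc2*, *Gsta1*, *Gstm1*, *Gstm2*, *Gstt3* and *Ugt2b36*. *Cyp3a11* had log2 differences of 1.05 ± 0.14 in WT and 0.36 ± 0.15 in *Apoe* KO mice (limma adjusted p = 0.000552 and 0.101). *Fmo5* had 0.67 ± 0.13 and 0.16 ± 0.09 (limma adjusted p = 0.00509 and 0.231). *Cyp2c55* had a log2 difference of 2.73 ± 0.80 in WT (limma adjusted p = 0.0404) and 1.18 ± 0.45 in *Apoe* KO mice (limma adjusted p = 0.0744). The WT call was lost at a pseudocount of 0.1 and without pair-fed WT mouse 4 or any 1 of EtOH-fed WT mice 1 to 4, with log2 differences of 2.48 to 3.60. *Gsta1* had 1.95 ± 0.75 in WT and 2.37 ± 0.50 in *Apoe* KO mice (limma adjusted p = 0.107 and 0.00459), and *Gstt3* -0.0045 ± 0.28 and 1.12 ± 0.20 (limma adjusted p = 0.993 and 0.00167). The difference between the diet differences was itself tested by the interaction, which called 2.84% of all genes and 1 of the 35 targets, *Gstm2*, at 1.13 ± 0.31 (limma adjusted p = 0.0498), a call lost in most alternative fits. *Gstm2* had diet differences of -0.24 ± 0.26 in WT and 0.89 ± 0.11 in *Apoe* KO mice. For *Abcc4*, *Ephx1* and *Cyp2c29*, which rose in both genotypes, the interaction was -0.26 ± 0.55, -0.42 ± 0.18 and -0.29 ± 0.37 (limma adjusted p = 0.860, 0.235 and 0.749), beside -4.21 ± 1.06 for *Cyp2b10*. For *Cyp2c54* and *Ugt1a9* it was -1.18 ± 0.34 and -1.45 ± 0.56 (limma adjusted p = 0.0677 and 0.184), and for *Gstt3* 1.13 ± 0.38 (limma adjusted p = 0.117). The median interaction of the list was -0.29, and of all genes 0.107, or -0.033 with median-of-ratios scaling. At an unadjusted limma p under 0.05 there were 10 of the 35 targets, beside 2451 of all 15052 genes.

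**Figure D3:**
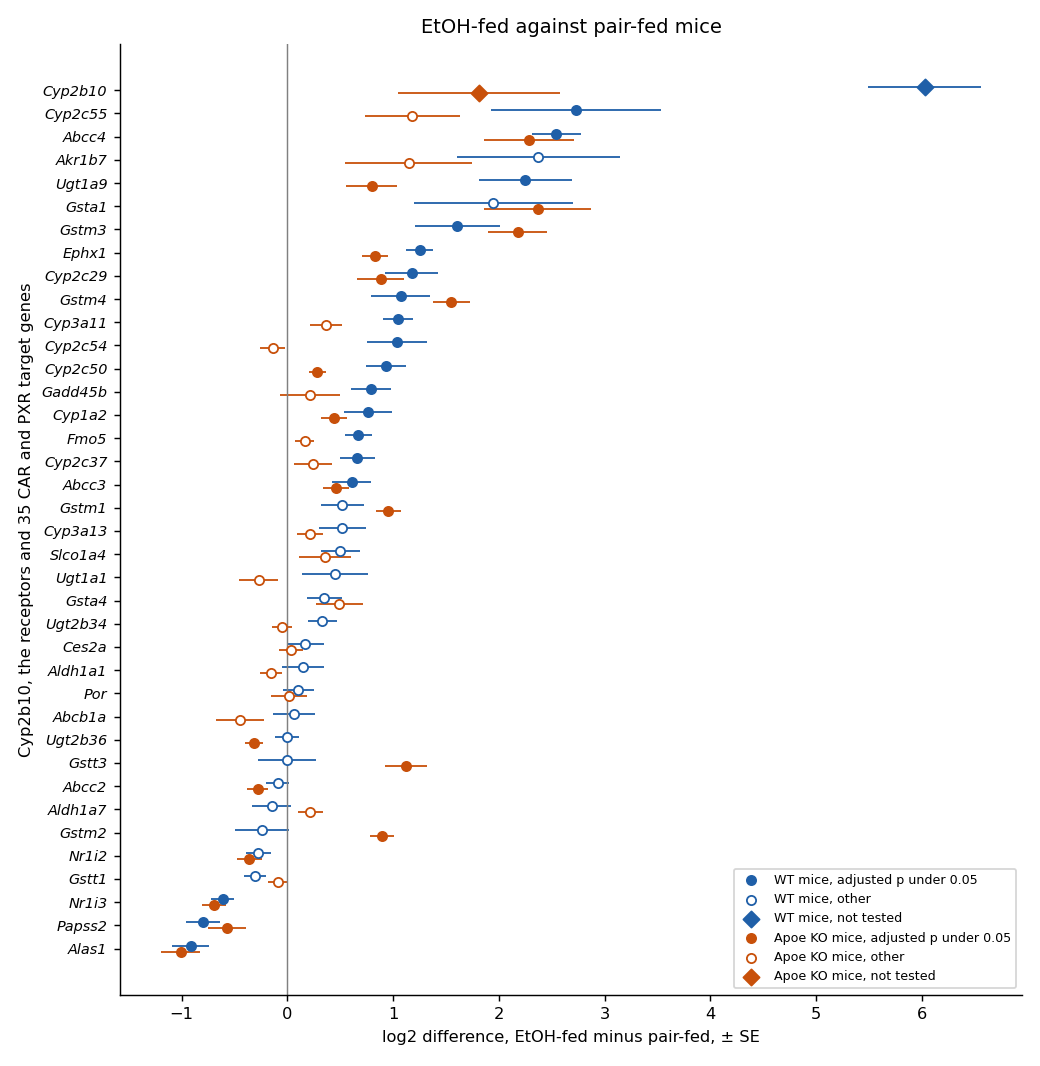
Log2 difference of EtOH-fed minus pair-fed mice (± SE) for *Cyp2b10*, *Nr1i3*, *Nr1i2* and 35 CAR and PXR target genes, in WT (blue) and *Apoe* KO mice (orange), filled where the limma adjusted p was under 0.05 and diamonds where no test was made. The WT point of *Cyp2b10* is 6.02 and its *Apoe* KO point 1.81, whereas *Abcc4* stands at 2.54 and 2.28.

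The genotype comparisons of the same list gave fewer calls. In EtOH-fed mice, where the *Cyp2b10* groups did not overlap, 0 of 35 targets passed with limma, beside 4.25% of all genes called higher and 0.445% lower in *Apoe* KO mice. At an unadjusted p under 0.05 there were 6 of the 35 targets, beside 2845 of all 15052 genes. Median-of-ratios scaling moved the median of all genes from 0.107 to -0.020. With it, adjusted calls over all genes were 380 higher and 126 lower in place of 639 and 67, with 1 lower target. Without EtOH-fed WT mouse 3 the number of targets called was 6, and without mouse 2 it was 1. In pair-fed mice 5 targets were higher and 1 lower, where 0.870% of all genes were called higher and 0.864% lower. The higher ones included *Cyp2c54* at 1.39 ± 0.10, *Ugt1a9* at 1.92 ± 0.40, *Cyp2c50* at 0.79 ± 0.10, *Fmo5* at 0.70 ± 0.11 and *Cyp1a2* at 0.70 ± 0.12, and the lower one was *Gstm2* at -0.97 ± 0.13 (limma adjusted p between 1.77e-05 and 0.0267). The call of *Ugt1a9* was lost without any of 5 single mice, pair-fed WT mice 2 and 4 and *Apoe* KO mice 1, 3 and 4, at 1.46 to 1.89, and that of *Cyp1a2* without pair-fed WT mouse 2 and with all 4 groups in 1 fit, at 0.71 and 0.70. Without pair-fed WT mouse 3 the number of targets called was 10, while calls over all genes went from 261 to 670.

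EtOH-fed WT mouse 3 had the highest *Cyp2b10* value of the study, 20780, and stood out for other targets too. It was the highest of the 5 EtOH-fed WT mice in 25 of the 35 target genes, while the other mice were highest in 0 to 5. How often this mouse was the highest over all genes was not counted, so the 25 cannot be called particular to the targets. Pair-fed *Apoe* KO mouse 3 was the highest of its group in 16 of the 35, with *Cyp2b10* at 120. In EtOH-fed WT mouse 3 *Cyp2c29* reached 78248 against 30420 to 34590 elsewhere in its group, and *Gstm3* was 12865 against 2094 to 3087. *Ugt1a9* was 1548 in EtOH-fed WT mouse 3, between 1089 in mouse 5 and 3672 in mouse 2.

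The partners of the receptors were a list of 15 genes that includes the retinoid X receptors, co-regulators, chaperones and phosphatase subunits. With limma 0 passed in the WT diet and in the pair-fed genotype comparison, where 6.19% and 0.870% of all genes were called higher and 6.52% and 0.864% lower. At an unadjusted p under 0.05 there were 4 and 5 of the 15, beside 4236 and 2991 of all 15052 genes. In EtOH-fed mice *Ppp2r1a*, a scaffold subunit of protein phosphatase PP2A, was higher in *Apoe* KO mice by 0.40 ± 0.09 (limma adjusted p = 0.0277). That call was lost with median-of-ratios scaling, at 0.27, and without EtOH-fed WT mouse 1 or 2 or EtOH-fed *Apoe* KO mouse 1, 4 or 5, at 0.37 to 0.42. In the *Apoe* KO diet comparison 3 rose and 2 fell (2 and 2 without EtOH-fed mouse 1), where 16.3% of all genes were called higher and 6.92% lower. *Nr0b2*, which makes the co-repressor SHP, fell from 886 ± 358 (SD, n = 5) to 111 ± 27.2 (n = 4), a log2 difference of -2.92 ± 0.27 (limma adjusted p = 2.08e-05). In WT mice it was 970 ± 290 (n = 4) and 511 ± 339 (n = 5), at -1.26 ± 0.54 (limma adjusted p = 0.143), and the interaction was -1.66 ± 0.68 (limma adjusted p = 0.209). *Rxra*, the CAR and PXR partner, fell by 0.43 in *Apoe* KO mice (SE 0.09, limma adjusted p = 0.00418). *Hsp90aa1*, *Ppp2ca* and *Ppp2r1a* rose by 0.51 ± 0.16, 0.24 ± 0.08 and 0.51 ± 0.09. With median-of-ratios scaling *Hsp90aa1* and *Ppp2ca* lost their calls, at 0.39 and 0.11. *Hsp90aa1* lost it also without pair-fed *Apoe* KO mouse 3 or 4 or EtOH-fed *Apoe* KO mouse 4 or 5, at 0.40 to 0.51, and *Ppp2ca* when any 1 of the 9 mice was left out. *Nr0b2* and *Rxra* were at -2.92 and -0.48 without EtOH-fed *Apoe* KO mouse 1 and kept their calls.

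Along the cluster, from *Cyp2s1* to *Cyp2t4* at 25802475 to 27158668 of chromosome 7, 16 of 45 annotated genes were in the table: the 4 members and 12 others, 7 of them protein-coding *Cyp2* genes. Of the 7, *Cyp2a5* passed in a genotype comparison, that of EtOH-fed mice, where *Apoe* KO livers had 172482 ± 31422 (SD, n = 4) against 67883 ± 27930 (n = 5) and a log2 difference of 1.42 ± 0.26 (limma adjusted p = 0.00817), and 1.35 ± 0.28 without EtOH-fed *Apoe* KO mouse 1 (limma adjusted p = 0.0234). *Cyp2a5*, a coumarin hydroxylase known to rise in injured liver, was at 0.92 ± 0.30 in pair-fed mice (limma adjusted p = 0.121). The first gene of the table beyond *Cyp2b9*, the antisense gene Gm42375 (ENSMUSG00000108431), was lower in pair-fed *Apoe* KO mice by 0.89 ± 0.18 (limma adjusted p = 0.0258) and at -0.07 ± 0.21 in EtOH-fed mice (limma adjusted p = 0.906), and the pair-fed call was lost without pair-fed WT mouse 1, 2 or 4 or pair-fed *Apoe* KO mouse 1, 3 or 4, at -0.90 to -0.83. It overlaps *Cyp2a4* on the other strand, and strand use in counting was not given. *Cyp2s1*, *Cyp2a4*, *Cyp2g1*, *Cyp2a22*, *Cyp2a12* and *Cyp2f2* had genotype differences between -0.85 and 0.70 and passed on neither diet.

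**Figure D4:**
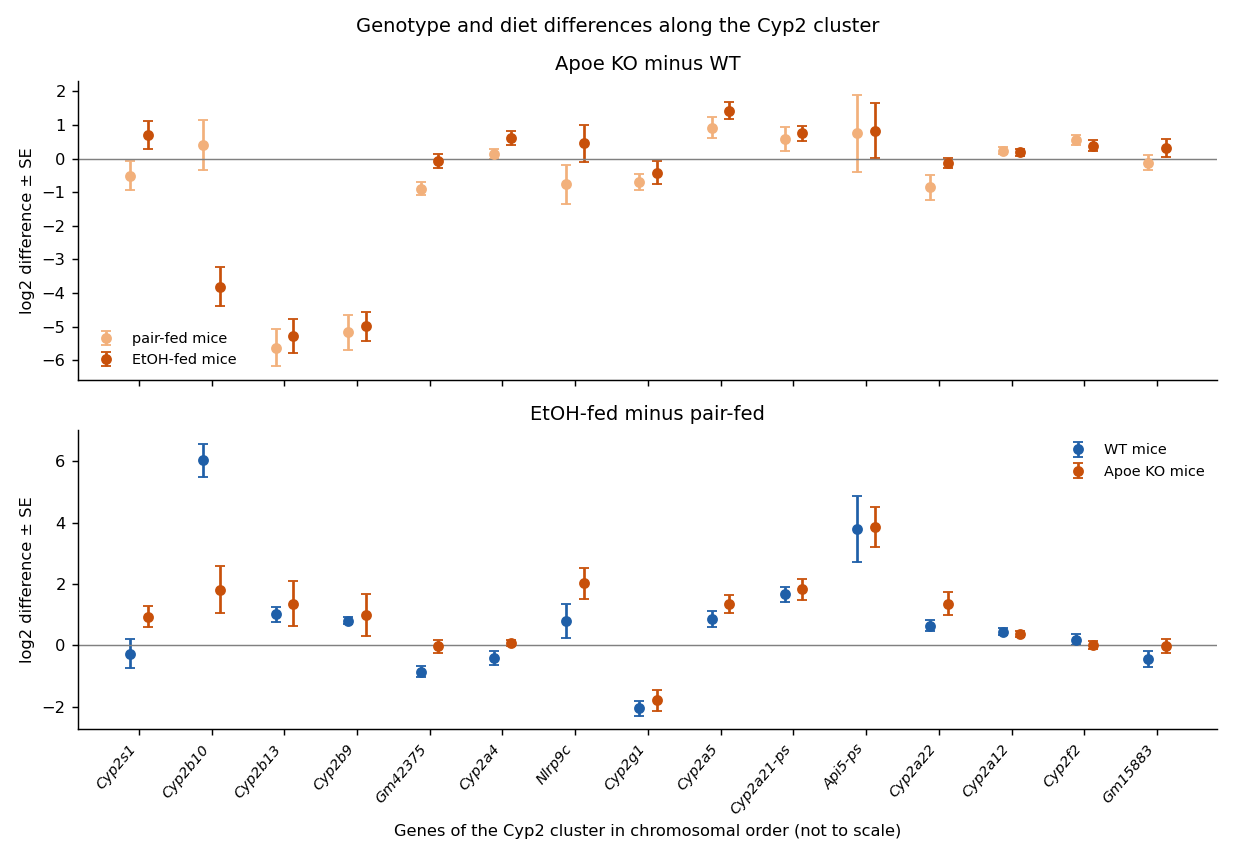
Log2 difference (± SE) by genotype (upper) and by diet (lower) for genes of the *Cyp2* cluster in chromosomal order, without *Gm29920*. *Cyp2b13* and *Cyp2b9* stand near -5 on both diets and *Cyp2b10* at -3.81 with EtOH alone, while the other genes lie between -0.89 and 1.42 by genotype.

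By diet, 5 cluster genes outside the *Cyp2b* genes passed in both genotypes, where 6.19% of all genes were called higher and 6.52% lower in WT and 16.3% and 6.92% in *Apoe* KO mice. *Cyp2g1* fell by 2.06 in WT and by 1.80 in *Apoe* KO mice (limma adjusted p = 0.000172 and 0.00210). *Cyp2a12* rose by 0.44 ± 0.12 and 0.38 ± 0.10, *Cyp2a22* by 0.64 ± 0.16 and 1.36 ± 0.37, and the pseudogene Cyp2a21-ps (ENSMUSG00000108487) by 1.66 ± 0.24 and 1.83 ± 0.34. The pseudogene *Api5-ps*, at group means of 7.25 and 96.8 in WT and 7.2 and 116.5 in *Apoe* KO mice, rose by 3.79 ± 1.09 and 3.87 ± 0.65. The *Apoe* KO call of *Cyp2a12* was lost with median-of-ratios scaling, at 0.25, and WT calls of *Cyp2a12*, *Cyp2a22* and *Api5-ps* were each lost without 3 or more single mice. *Nlrp9c* rose in *Apoe* KO mice by 2.01 ± 0.51 (limma adjusted p = 0.0123) and was at 0.80 ± 0.56 in WT mice, and Gm42375 fell in WT mice by 0.86 (limma adjusted p = 0.00757) and was at -0.04 ± 0.21 in *Apoe* KO mice. *Cyp2a5* rose by 1.35 ± 0.30 in *Apoe* KO mice (limma adjusted p = 0.00558) and was at 0.85 ± 0.27 in WT mice (limma adjusted p = 0.0534). The interaction passed for 0 of the 12 genes and 2.84% of all genes, the smallest limma adjusted p being 0.0955 for Gm42375. *Cyp2f2*, which overlaps the antisense gene Gm15883, and Gm15883 itself passed in none of the comparisons.

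Since *Cyp2b9* and *Cyp2b13* are female-predominant, sex-biased genes were counted beside them. Of 17 other female-biased liver genes 3 were lower and 0 higher in *Apoe* KO mice on each diet, where 0.864% of all genes were called lower in pair-fed and 0.445% in EtOH-fed mice. Of 17 male-biased genes 4 were higher in pair-fed and 2 in EtOH-fed *Apoe* KO mice and 0 lower, where 0.870% and 4.25% of all genes were called higher. Without EtOH-fed *Apoe* KO mouse 1 the EtOH-fed counts were 3 lower female-biased and 3 higher male-biased genes. Summed female-biased values were 105930 to 155940 in pair-fed *Apoe* KO and 135715 to 184687 in pair-fed WT mice, which overlap. With EtOH they were 91210 to 100609 in *Apoe* KO mice 2, 4 and 5, 147921 in mouse 1 and 63064 to 109821 in WT mice. Summed male-biased values were 43429 to 137301 in pair-fed *Apoe* KO and 29299 to 39529 in pair-fed WT mice, which do not overlap. With EtOH they were 45117 to 60249 in *Apoe* KO mice 2, 4 and 5, 43704 in mouse 1 and 29741 to 47597 in WT mice. Mouse 1 thus had the highest female-biased and the lowest male-biased sum of its group. By diet, 9 female-biased genes fell and 0 rose in WT mice, where 6.52% of all genes were called lower and 6.19% higher. In *Apoe* KO mice 5 fell and 2 rose (7 and 1 without mouse 1), beside 6.92% and 16.3% of all genes. Of the male-biased genes 5 fell and 2 rose in WT mice, and 6 and 1 in *Apoe* KO mice (3 and 1 without mouse 1). *Cyp2b9* and *Cyp2b13* rose with EtOH in WT mice, by 0.80 and 1.002. The part of sex-biased expression in the *Cyp2b* differences was not tested.

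Genes with the most similar pattern were ranked by Pearson's r of log2(value + 1) over the 18 mice, as a description, among 14490 genes with a mean of at least 20, the 6 members left out. For *Cyp2b9* they were *Apoe* (0.991), *Mrps12* (0.861), *Gpi1* (0.838), *Dntt* (0.83) and *C5ar2* (0.824), all on chromosome 7 except *Dntt*, which is on chromosome 19. For *Cyp2b10* they were *Krt23* (0.871), *Cyp2c29* (0.869), *Trip11* (0.862), *Mocs2* (0.858) and *Cyp3a11* (0.854), none of them on chromosome 7. *Cyp2c29* and *Cyp3a11* are in the list of CAR and PXR targets.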

How the data were processed

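Liver polyA RNA of 18 mice was sequenced. Per the labels and the study's methods the authors trimmed reads with Trimmomatic, aligned them to GRCm38 with HISAT2, counted with featureCounts and analyzed them with DESeq2 (versions not given in the sources used here). The deposited signal is a scaled read count rounded to whole numbers, with totals within 0.0779% of each other. The authors' fold changes and p-values in the same table were not used. The table's 15247 lines hold 15052 genes, after 195 repeated lines were dropped. Values were tested as log2(value + 1) with limma 3.58.1 (trended variance, R 4.3.3), with Benjamini-Hochberg adjustment over all genes and a threshold of 0.05. Each comparison used its 2 groups, and the interaction all 18 mice. Each library is labelled as 1 mouse, and p-values cover the spread between these libraries. The limma step was tested on simulated data. Within-group relations used 100000 permutations, two-sided. Positions came from GENCODE M21, promoters from RefSeq. Named genes were the members, the cluster genes, up to 6 called genes of each receptor list per comparison and the 5 most similar genes. Targets called by diet in 1 genotype alone were named as well. The members, the receptor, sex-biased and cell marker lists were chosen with earlier results of these data known. Promoter motifs were chosen with the sequences in view. Alternatives changed scaling, filter, pseudocount, sample weights, groups in the fit, replicate block and the mice.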

Additional observations from a re-analysis of the deposited data

Results flagged for a closer look

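EtOH-fed *Apoe* KO mouse 1 lay apart as the lowest of its group of 4 for *Cyp2b9* (gap over range 0.936) and for *Apoe* (0.855), and it is the mouse whose *Xist* and *Ddx3y* values go against its label. EtOH-fed *Apoe* KO mouse 5 lay apart for *Gm29920* (1), as the single *Apoe* KO mouse with a value above 0. Over the 27 sets of values examined for the 6 members and *Apoe*, these were 3 flags, and chance alone marks about 1 in 20 such sets. That rate does not hold for *Gm29920*, where a single value above 0 gives 1 whatever its size. The flags of *Cyp2b9* and *Apoe* are the same mouse in genes that moved together, so they are not separate events.

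*Gstm2* differed in its diet response between genotypes, with an interaction of 1.13 on the log2 scale, but the call did not hold in most alternative fits. The interaction was tested with limma.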

How the results depend on the processing

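*Nr1i3* kept its direction and its call for diet in both genotypes in all alternatives run. The genotype differences of *Cyp2b9* and *Cyp2b13*, the EtOH-fed genotype difference of *Cyp2b10* and the diet differences of all 3 kept their direction in all alternatives run. *Nr1i2* in *Apoe* KO mice lost its diet call at a pseudocount of 0.1 (-0.36), with sample weights (-0.35) and with the replicate block (-0.31, limma adjusted p = 0.119), and ranged from -0.44 to -0.29 when 1 mouse was left out. The *Nr1i2* genotype difference in pair-fed mice, uncalled throughout, changed sign with sample weights (0.0059), without pair-fed WT mouse 4 (0.043) and without pair-fed *Apoe* KO mouse 2 (0.059), its lowest value with 1 mouse left out being -0.062. The *Nr1i3* interaction changed sign without pair-fed WT mouse 1 (0.0058), its lowest value with 1 mouse left out being -0.14. The interactions of *Cyp2b9* and *Cyp2b13* also changed sign, to -0.18 and -0.061 with sample weights, -0.61 and -0.39 with the replicate block and between -0.21 and -0.0085 without single *Apoe* KO mice, as did the pair-fed genotype difference of *Cyp2b10* without 1 mouse (-0.066 and -0.096), all within their SE. The r of *Cyp2b10* with *Nr1i2* ranged from -0.71 to -0.27 and passed without pair-fed *Apoe* KO mouse 1 or 2.

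Genes called numbered 706 for genotype in EtOH-fed mice (327 to 620 with 1 mouse left out), 261 in pair-fed mice (73 to 670, and 456 with sample weights), 1912 for diet in WT mice (1186 to 1904) and 428 for the interaction (167 to 561). CAR and PXR targets called ranged from 0 to 6, 4 to 10, 10 to 18 and 0 to 3 in the same order. With median-of-ratios scaling they were 1 for genotype in EtOH-fed mice and 2 for the interaction, which was 0 at a mean of at least 20 and at a pseudocount of 0.1. The causes were not tested.

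Same-numbered mice did not deviate together in every pair (r over 0.1 in 3 of 4 pairs for genotype in EtOH-fed mice, 0 of 4 in pair-fed mice, 1 of 4 for diet in each genotype), so the numbers were not taken as a pairing. With the replicate block 1083 genes and 9 targets were called for genotype in EtOH-fed mice, 392 genes in pair-fed mice and 4 targets for the interaction. Depth limits *Gm29920*, whose *Apoe* KO values lie under 3 reads.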
